A study of Mus musculus with 4 samples.

Results

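The insulin receptor gene Insr and the genes of its substrates Irs1, Irs2 and Irs4 were followed through single nuclei of the mouse mediobasal hypothalamus. They are 4 of the 31053 gene symbols in the deposited count table, taken by symbol, and all 4 were detected. The receptor is a tyrosine kinase at the cell surface. When insulin binds, it phosphorylates the substrates, which dock PI3-kinase and so pass the signal on to AKT and the FoxO transcription factors. In the hypothalamus this pathway is known for its part in the control of feeding and of glucose production by the liver, with Agrp and Pomc neurons of the arcuate nucleus among the best studied targets.

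The mice were wild type, had free access to chow, and received either saline or insulin before the hypothalamus was dissected. All 4 libraries share that background, and the labels used here give no dose, route, time after treatment, age or number of mice. Nuclei were cleaned by flow sorting and sequenced with the 10x 3' assay, in 2 Saline and 2 Insulin libraries. The library names give a sequencing run, here called run A for the lower run number and run B for the higher, and each run holds 1 Saline and 1 Insulin library. Values per library are given as Saline in run A, Saline in run B, Insulin in run A and Insulin in run B. Nothing says whether a library is a single mouse or a pool, so p-values reflect how these 4 libraries scatter, which may be technical.

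The 36523 annotated nuclei gave 63590421 to 71391593 unique molecular identifiers (UMIs, 1 per captured transcript) per library, with median UMIs per nucleus of 5472.5 to 6859.5. The authors' annotation gives 23261 neurons in 37 populations and 11723 nuclei of 7 other types. Levels are UMIs of the gene per 1000000 UMIs of the same nuclei (CPM), with the standard deviation (SD) over the 4 libraries, and are compared within a gene only, because 3' counting and transcript length differ between genes. Run and sex coincided: the X-inactivation RNA Xist had 4.53 and 4.88 CPM in the libraries of run A against 1614 and 1713 in those of run B, so the 2 cannot be told apart. Of 36205 barcode sequences, 318 occurred in more than 1 library. The 6 markers of each type were highest in that type for neurons, oligodendrocytes, oligodendrocyte precursor cells (OPC), microglia and mural nuclei, 5 of 6 were for astrocytes, and 4 of 6 for ependymal nuclei (annotated Ependymo). The nuclei annotated Endothelial went against their label: none of the 6 endothelial markers was highest there, and their sum was at 253 to 342 CPM against 3662 to 4229 CPM in the nuclei annotated Mural. Ependymal and tanycyte markers reached 2661 to 3328 CPM in the nuclei annotated Endothelial, and astrocyte markers 2629 to 3429 CPM. Population names held better, with 30 of 36 name genes highest in their own population.

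In GRCm38 all 4 genes lie on the minus strand. Insr (ENSMUSG00000005534) spans chromosome 8 from 3122061 to 3279617, and its longest coding transcript has 21 exons. Irs1 (ENSMUSG00000055980, chromosome 1, 82233101 to 82291416), Irs2 (ENSMUSG00000038894, chromosome 8, 10984681 to 11008458) and Irs4 (ENSMUSG00000054667, chromosome X, 141710998 to 141725263) have 2 exons each. Genes on the opposite strand that overlap them had few UMIs: Gm16180 had 21 against 33901 of Insr, Gm9747 had 48 against 11174 of Irs1, and Gm15295 had 93 against 2355 of Irs4. Whether the counting used strand is not given in the sources used here.

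Irs1, Irs2 and Irs4 carry a like arrangement of motifs upstream of their start sites, shown here as a description. The stretches below come from RefSeq (GRCm38.p6, minus strand, 5′ to 3′), and the motifs were chosen after the letters were seen. Their presence in all 3 genes was thus fixed in advance, and their counts over all promoters carry no test. Capitals mark the E-box CACGTG, a site of basic helix-loop-helix factors, and TGTTTTG, a core known from insulin-responsive promoters. In Irs1 (chr1:82291522-82291576) the motifs share 2 bases, and in Irs2 (chr8:11008938-11008995) and Irs4 (chrX:141725336-141725393) a single base lies between them.
Irs1: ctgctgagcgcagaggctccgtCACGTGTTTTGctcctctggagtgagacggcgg
Irs2: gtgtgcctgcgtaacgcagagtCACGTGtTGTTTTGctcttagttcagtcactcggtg
Irs4: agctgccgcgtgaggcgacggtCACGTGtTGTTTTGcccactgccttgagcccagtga
Counted from the RefSeq start, the E-box began 115 bases upstream in Irs1, 44 bases in Irs2 and 154 bases in Irs4. The gene spans given above come from the GENCODE annotation, whose starts differ from those of RefSeq for all 3, so these distances do not apply to them. Irs2 and Irs4 share the run GTCACGTGTTGTTTTGC. It occurred in 2 of all 32851 promoter windows of 250 bases before to 50 bases after a start, read on both strands. These 2 are the windows of Irs2 and Irs4 themselves. Among those windows, 7.15% held the E-box, 6.28% held TGTTTTG on either strand and 0.408% held both. In 12 windows, or 0.0365%, TGTTTTG began inside the E-box or at most 10 bases after it on the same strand. Those of Irs1, Irs2 and Irs4 are included, and windows with TGTTTTG before the E-box were not counted. A match describes letters and says nothing of a factor bound there. The window of Irs3, another substrate gene of the mouse, held neither motif. No window under the symbol Insr was found in the table.

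The receptor gene was read in every cell type, and its level differed more between types than between neuron populations. Neurons were at 128, 108, 115 and 111 CPM (115.6 ± 8.7, SD, n = 4), the lowest mean of the 8 types. CPM is a share of the UMIs of a type, and counted per nucleus the order differed. Neurons, 63.7% of nuclei, held 76.4% of Insr UMIs, and Mural nuclei, 0.991% of nuclei, held 1.15%. Each of the other types held a smaller share of Insr UMIs than of nuclei. Nuclei annotated Mural were at 478, 341, 392 and 458 CPM (417 ± 63). Every Mural library lay above every library of the other types. Oligodendrocytes followed at 231.9, 163, 189 and 161 CPM, and overlapped with astrocytes, ependymal nuclei and microglia, whose means ran from 178 to 182 CPM. Within that group of 4 the ranges of neighbours in the order overlapped, and the same held within the lower group of nuclei annotated Endothelial (147 CPM), OPC (130.4 CPM) and neurons. Every microglia library lay above every library of the nuclei annotated Endothelial.

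Each type was compared with the mean of the other 7 by edgeR's quasi-likelihood test with library as a block, with p-values adjusted by Benjamini-Hochberg over all genes tested and a call at an adjusted p under 0.05. Across the 4 genes, 8 of 32 such tests were called higher and 5 of 32 lower, where 25.2% of the tests of all genes were called higher and 22.4% lower. The counts stand near that background, so calling as such does not set these genes apart. For Insr the calls were higher in Mural nuclei (log2 difference 1.14, SE 0.11, adjusted p = 5.4e-11) and in oligodendrocytes (0.30, SE 0.09, adjusted p = 0.0056). Lower calls of Insr were those in neurons (-0.64, SE 0.09, adjusted p = 1.5e-07), in nuclei annotated Endothelial (-0.47, SE 0.10) and in OPC (-0.34, SE 0.10). The oligodendrocyte call was lost without the Saline library of run A (0.20, adjusted p = 0.11) and with no scaling beyond total UMIs (0.07), and the OPC call without the Insulin library of run A (-0.28, adjusted p = 0.065). Mural nuclei carried both endothelial and mural markers, so the Insr level there belongs to that mixture.

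**Figure D1:**
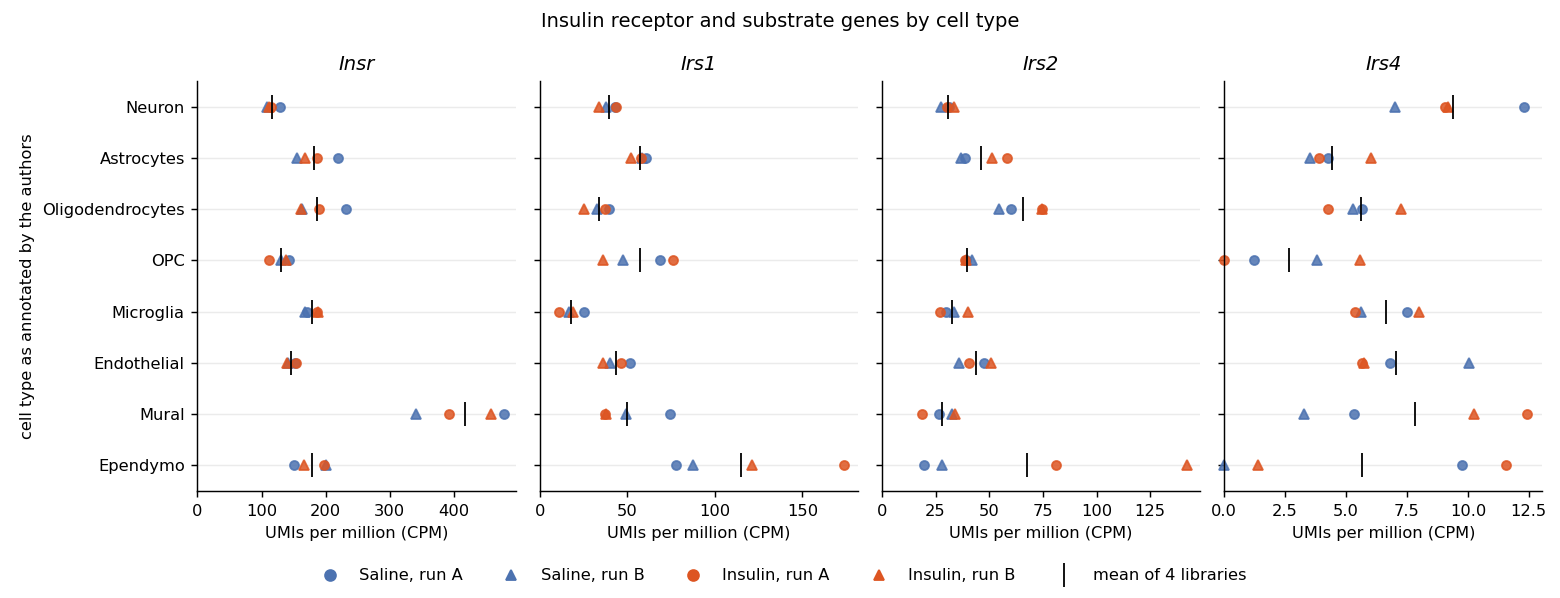
Levels of Insr, Irs1, Irs2 and Irs4 in the 8 annotated cell types, in CPM, with 1 point per library and a panel per gene. Insr in Mural nuclei stands above all other types, Irs1 is highest in Ependymo nuclei, Irs4 is low everywhere, and the Irs2 points of Ependymo nuclei spread from 19.5 to 142 CPM.

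Irs1, a main substrate in insulin's growth-promoting and metabolic actions, was highest in ependymal nuclei at 77.9, 87.5, 174 and 121 CPM (115.1 ± 43.2). All 4 of these libraries lay above those of astrocytes, which came next at 60.9, 58.5, 57.7 and 52.1 CPM. Microglia were lowest, at 25.03, 16.8, 10.8 and 19.2 CPM, below every oligodendrocyte library. That value rested on 35 UMIs of Irs1 in 442 microglia. Against the other types, Irs1 was higher in ependymal nuclei (1.45, SE 0.17, adjusted p = 1.2e-08, edgeR), in astrocytes (0.53, SE 0.11, adjusted p = 6.7e-05) and in OPC (0.48, SE 0.13, adjusted p = 0.0037). It was lower in microglia (-1.60, SE 0.24, adjusted p = 1.35e-06). The OPC call was lost without the Insulin library of run A (0.29, adjusted p = 0.14) and when each nucleus was thinned to 1000 UMIs (0.48, adjusted p = 0.16).

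Irs2, the substrate whose loss is known to cause diabetes and overeating in mice, was high in oligodendrocytes and in ependymal nuclei. Oligodendrocytes were at 60.1, 54.4, 74.6 and 74.6 CPM (65.9 ± 10.3), and neurons at 31.2, 27.8, 30.2 and 33.6 CPM (30.7 ± 2.4). The ependymal mean was of like size, 67.7 CPM, but its libraries ran from 19.5 to 142 CPM. Irs2 was called higher in oligodendrocytes (0.89, SE 0.15, adjusted p = 3.4e-06, edgeR) and lower in neurons (-0.52, SE 0.12, adjusted p = 0.00033). It was also called higher in ependymal nuclei (1.00, SE 0.24, adjusted p = 0.00082), a call that turned to -0.31 (adjusted p = 0.53) without the Insulin library of run B. The ranges of neighbours in the order of the 8 Irs2 means overlapped, although oligodendrocytes lay above astrocytes within 4 of 4 libraries.

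Irs4, a substrate found in few tissues and well known from the hypothalamus, was the scarcest in UMIs, 2355 in all. Neurons were at 12.3, 6.99, 9.04 and 9.18 CPM (9.38 ± 2.19) and held 89.5% of the UMIs of Irs4, with 63.7% of the nuclei. For Irs1, Irs2 and Insr the neuronal share of UMIs was 79.3%, 75.2% and 76.4%. The other 7 types were between 2.66 and 7.82 CPM, from 4 UMIs in ependymal nuclei to 80 in astrocytes. Irs4 was higher in neurons than the mean of the other types (0.97, SE 0.19, adjusted p = 2.6e-05, edgeR). The ranges of neighbours in the order of the 8 Irs4 means overlapped. Neurons lay above Mural nuclei, which came next at 7.82 CPM, in 2 of 4 libraries. Thinned to 1000 UMIs per nucleus, 0.922% of neurons had a UMI of Irs4, against 0% to 0.865% of the other types, and too few UMIs were left for a test. Free RNA in droplets can give such low shares, and its part in the Irs4 counts outside neurons was not tested.

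Depth bears on any share of nuclei, since neurons had a median of 8445 UMIs and Mural nuclei of 1919.5. Unthinned, 60.6% of neurons and 48.1% of Mural nuclei had a UMI of Insr. After thinning to 1000 UMIs the shares were 10.9% of neurons and 30.3% of Mural nuclei, the same order as in CPM. Thinning, like CPM, sets the gene against a fixed number of UMIs, so it does not give the order per nucleus. Thinned shares of neurons were 3.65% for Irs1 and 3.22% for Irs2. For thinning, 42 neurons and 15 Mural nuclei were too shallow and were left out.

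Within neurons the 4 genes spread very differently. Over the 35 populations with at least 10 nuclei in every library, the highest mean was 1.86 times the lowest for Insr, 4.31 times for Irs1 and 5.82 times for Irs2. Irs4 ran from 73.9 CPM down to 0.395 CPM, a lowest mean that is 1 UMI in 1 library and so gives no firm ratio. For Insr the coefficient of variation across population means, 12.99%, was close to the median one between libraries of a population, 12.7%. For Irs4 these were 120.3% and 33.7%. The test used for types was repeated for each population against the rest, and 24 of 140 tests of the 4 genes were called higher and 20 of 140 lower. Of the tests of all genes, 12.6% were called higher and 9.06% lower. By gene the calls were 2 for Insr, 13 for Irs1, 16 for Irs2 and 13 for Irs4. In the ordered list of population means the ranges of neighbours overlapped for all 4 genes, although within libraries Irs4 was higher in Agrp than in Pomc neurons, and in M34.Esr1/Npy1r than in M30.Gal, in 4 of 4.

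Insr was nearly level across neurons. The highest mean was in M1.GABA, at 259, 173, 165 and 147 CPM (186 ± 49.7), from only 48 UMIs in 168 shallow nuclei, and it was not called (0.29, adjusted p = 0.48, edgeR). M30.Gal (139.8 CPM) and M16.Npsr1 (137 CPM) came next. The lowest tested means were those of M14.GABA (100.2 CPM), M5.Snypo2 (100.6 CPM) and M10.Sim1|Trh (104.6 CPM), and M13.Irx5, untested because 1 library held 9 of its nuclei, was at 94.8 CPM. Agrp neurons were at 143, 110.2, 133 and 112 CPM and Pomc neurons at 132, 99.0, 116 and 127 CPM, and their means of 124.5 and 118.4 CPM lay within the range of the libraries of all neurons. The calls were M16.Npsr1 (0.23, SE 0.06, adjusted p = 0.0040) and M6.Slc17a8 (0.21, SE 0.07, adjusted p = 0.023). M16.Npsr1 was not called without the Saline library of run A (0.21, adjusted p = 0.087). M6.Slc17a8 was not called without the Insulin library of run A (0.13, adjusted p = 0.36) or of run B (0.20, adjusted p = 0.070), and neither was called without the library block.

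**Figure D2:**
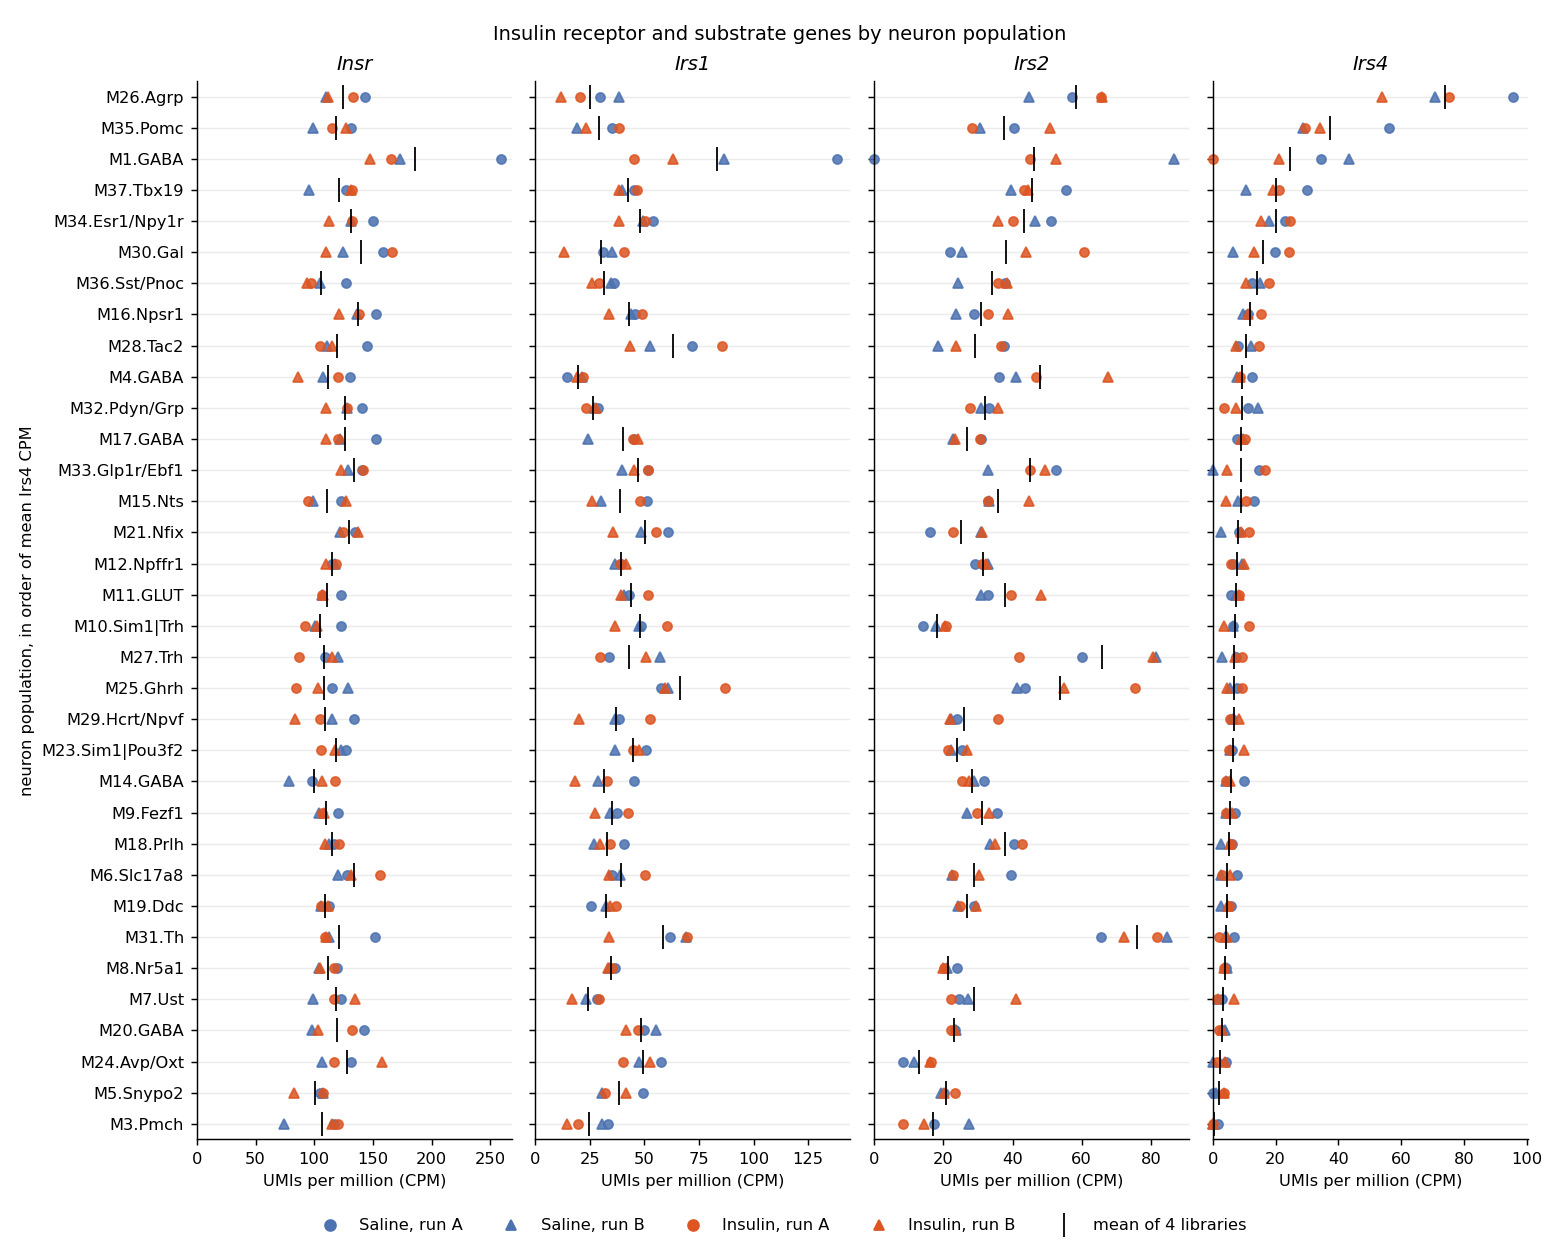
Levels of the 4 genes in 34 of the 35 tested neuron populations, in CPM, with 1 point per library, a vertical mark at their mean, and populations ordered by the mean of Irs4. Apart from M1.GABA (186 CPM), the Insr means stay between 100.2 and 139.8 CPM, and Irs4 falls from 73.9 CPM in Agrp neurons to 0.395 CPM in Pmch neurons.

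Irs4 was concentrated in Agrp neurons. They were at 95.5, 70.9, 75.2 and 53.9 CPM (73.9 ± 17.1) and Pomc neurons at 56.3, 28.7, 29.5 and 34.3 CPM (37.2 ± 12.95). Agrp neurons made up 2.62% of neurons and held 19.7% of neuronal Irs4 UMIs (16.5% to 22.8% per library), while Pomc neurons, 1.66% of neurons, held 6.64%. The untested M13.Irx5, 2.61% of neurons, held 5.93% (0% to 8.63% per library). The Agrp share of UMIs was 4.81% for Irs2, 2.71% for Insr and 1.49% for Irs1. In the comparison with other populations Irs4 was higher in Agrp neurons by 3.33 (log2, SE 0.13, adjusted p = 4.1e-49, edgeR) and in Pomc neurons by 2.28 (SE 0.18, adjusted p = 7.2e-22). These are large against the other 4 higher calls, in M37.Tbx19 (1.41), M34.Esr1/Npy1r (1.34), M36.Sst/Pnoc (0.91) and M16.Npsr1 (0.68). M1.GABA had the third highest mean, 24.7 CPM, from 6 UMIs, and was not called.

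At the other end Irs4 was hardly seen in some populations. Pmch neurons, which make melanin-concentrating hormone, had 1 UMI of Irs4 in 110 nuclei (0.395 CPM), although their median depth of 13308.5 UMIs was above that of Agrp neurons (8538). M24.Avp/Oxt neurons had 3 UMIs in 153 nuclei (2.38 CPM), and M5.Snypo2 had 7 UMIs in 266 nuclei (2.03 CPM). All 3 were called lower, and M7.Ust, M8.Nr5a1, M19.Ddc and M20.GABA were too, with log2 differences of -0.71 to -1.30. Without the Saline library of run A no Irs4 UMI remained in Pmch neurons, and Irs4 could then not be tested against the mean of the populations. Without each of the other libraries the Agrp and Pomc calls stood. Calls of smaller size were lost: M5.Snypo2, M19.Ddc, M24.Avp/Oxt and M36.Sst/Pnoc without the Saline library of run B (adjusted p = 0.080, 0.23, 0.085 and 0.062), M7.Ust, M16.Npsr1 and M24.Avp/Oxt without the Insulin library of run A (adjusted p = 0.051, 0.096 and 0.13), and M19.Ddc without the Insulin library of run B (adjusted p = 0.054).

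Irs2 was highest in M31.Th neurons, which carry the dopamine synthesis gene Th, at 65.7, 84.6, 81.8 and 72.1 CPM (76.1 ± 8.7). M27.Trh neurons were at 60.1, 81.4, 42.0 and 80.5 CPM, and Agrp neurons at 57.1, 44.7, 65.5 and 65.8 CPM (58.3 ± 9.9). These 3 overlapped with one another. Pomc neurons, at 37.5 CPM, were close to the middle of the order. Irs2 was called higher in M31.Th (1.26, SE 0.12, adjusted p = 5.1e-18, edgeR), M27.Trh (0.97, SE 0.17), M26.Agrp (0.83, SE 0.11, adjusted p = 3.3e-11) and 5 further populations, M4.GABA (0.71), M25.Ghrh (0.69), M33.Glp1r/Ebf1 (0.48), M37.Tbx19 (0.43) and M11.GLUT (0.33). The lowest means were in the magnocellular M24.Avp/Oxt neurons (13.1 CPM), in Pmch neurons (16.9 CPM) and in M10.Sim1|Trh (18.3 CPM), all 3 called lower (-1.21, -0.78 and -0.75). The Pmch call was lost without the Saline library of run A (-0.81, adjusted p = 0.078) and without the Insulin library of run A (-0.56) or run B (-0.68). Irs2 was also called lower in M8.Nr5a1, M20.GABA, M21.Nfix and M23.Sim1|Pou3f2 (-0.46 to -0.43), where M21.Nfix was lost without the Saline library of run A (-0.24). Among the higher calls, M25.Ghrh was lost without the Insulin library of run A (0.50, adjusted p = 0.060), M33.Glp1r/Ebf1 (0.37) and M37.Tbx19 (0.30) without the Saline library of run A, and M11.GLUT (0.24) without the Insulin library of run B.

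Irs1 had a different order. Its highest tested means were in M1.GABA (138, 86.7, 45.0 and 63.1 CPM, from 21 UMIs, not called), M25.Ghrh (57.5, 60.9, 86.8 and 59.4 CPM) and M28.Tac2 (71.7, 52.3, 85.7 and 43.3 CPM). Ghrh neurons drive growth hormone release, and the Tac2 population carries the gene of neurokinin B. Irs1 was called higher in M25.Ghrh (0.71, SE 0.16, adjusted p = 0.00015, edgeR), M28.Tac2 (0.64, SE 0.16, adjusted p = 0.0011) and M31.Th (0.58, SE 0.13, adjusted p = 0.00015). M10.Sim1|Trh, M20.GABA, M21.Nfix and M11.GLUT were called higher by smaller differences (0.27 to 0.40). Each of these 4 calls rested on single libraries: M10.Sim1|Trh (0.33) and M11.GLUT (0.21) were lost without the Insulin library of run A, M11.GLUT also without that of run B (0.24), M20.GABA without the Saline library of run B (0.28) and M21.Nfix without the Saline library of run A (0.30). Agrp neurons lay at the low end, at 29.4, 38.2, 20.3 and 11.8 CPM (24.9 ± 11.4), and Irs1 was called lower there (-0.80, SE 0.14, adjusted p = 9.2e-07). The lowest means were those of M4.GABA (19.3 CPM, -0.94, SE 0.21, adjusted p = 0.00014), M7.Ust (24.3 CPM, -0.61), called lower like M32.Pdyn/Grp (-0.63), and Pmch neurons (24.4 CPM, -0.47, adjusted p = 0.16, not called), with M2.Hdc, untested, at 16.9 CPM. In Pomc neurons Irs1 was at 34.9, 19.1, 38.5 and 23.3 CPM, called lower (-0.60, SE 0.16, adjusted p = 0.0020) but not without the Saline library of run B (-0.40, adjusted p = 0.16).

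Substrates thus came in different combinations. Agrp neurons were low in Irs1 and high in Irs2 and Irs4. M31.Th and M25.Ghrh neurons were high in Irs1 and Irs2, and their Irs4 levels, 4.28 and 6.67 CPM, were not called. The Irs2 call in M25.Ghrh depended on the Insulin library of run A (0.50 without it, adjusted p = 0.060). M4.GABA was low in Irs1 and high in Irs2. Over the 35 population means, taken as log2 of CPM plus 1, the correlation was 0.56 for Irs2 with Irs4, 0.02 for Irs1 with Irs4 and 0.09 for Irs1 with Irs2. Within single libraries the value for Irs2 with Irs4 ran from 0.08 to 0.53. These values describe populations that share libraries and depth, and carry no test.

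**Figure D3:**
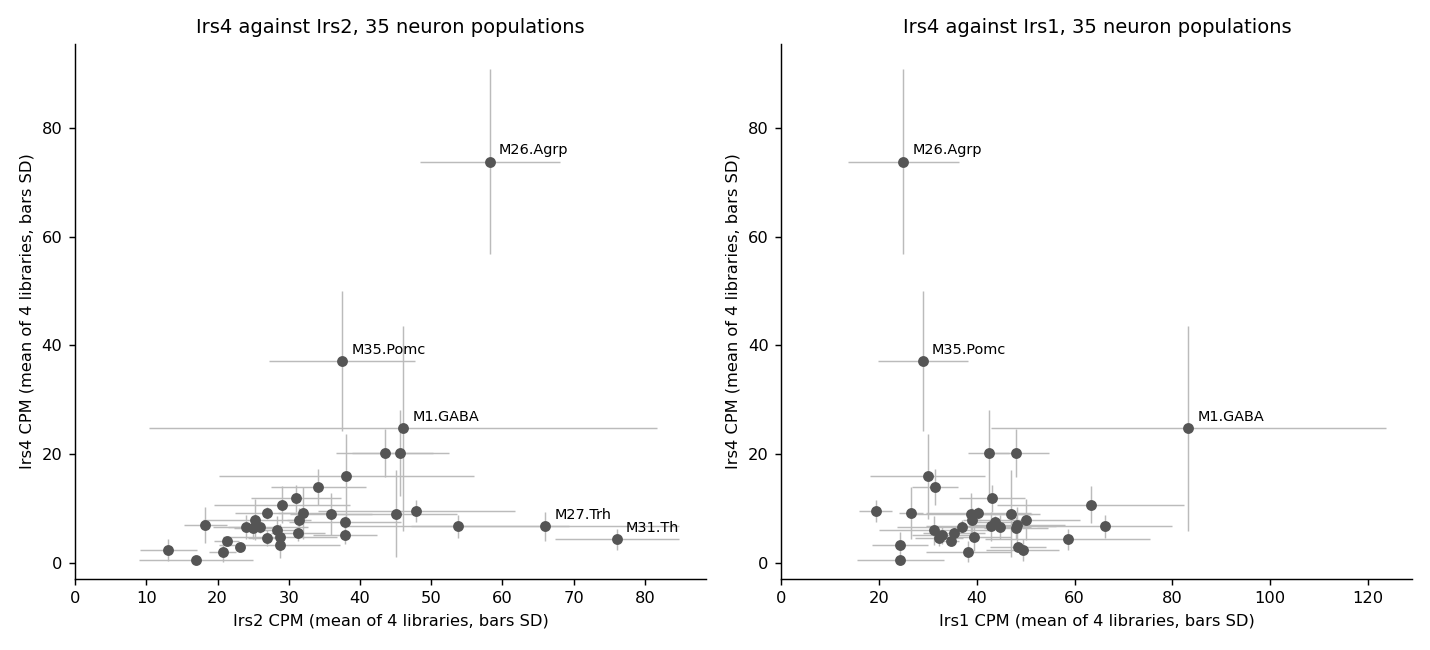
Mean level of Irs4 against that of Irs2 and against that of Irs1 in the 35 neuron populations, in CPM on linear axes, with bars for the SD over 4 libraries. Agrp neurons stand high and to the right against Irs2 (58.3 CPM) and at the upper left against Irs1 (24.9 CPM).

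At the level of single nuclei, 46.5% of neurons had a UMI of at least 1 substrate, 30.5% had Insr together with a substrate, and 23.4% had none of the 4 genes. In Agrp neurons these shares were 68.4%, 45.1% and 12.3%, and in Pomc neurons 55.4%, 37.6% and 17.9%. Neurons with a UMI of Irs4 had Insr in 67.5% of cases and those without in 60.1%, but their median depths were 10310 and 8309 UMIs. Within Agrp neurons the same shares were 65.3% and 63.8%, at 9471 and 7975 UMIs. Detection thus moved with depth, and the part of depth in these shares was not tested.

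Genes whose means over the 35 populations were most like each of the 4 were picked among 12167 genes with a mean of at least 5 CPM. For Irs4 they were Eif3i (r = 0.82), Drg1 (0.80) and Lsm1 (0.78), and for Irs2 they were Zfp788 (0.84), N4bp2l2 (0.81) and Fkbp5 (0.79). Fkbp5 and N4bp2l2 had their highest means in Agrp neurons, at 252 and 371 CPM. For Insr they were Pfdn5 (0.86), Arf1 (0.84) and Rpl23 (0.83), and for Irs1 Bcan (0.78), Mlycd (0.71) and Klc4 (0.70), and all 6 were highest in the shallow M1.GABA nuclei. Eif3i was also highest there, at 17.2 CPM. With 5 rather than 1 added to CPM before the log2, Lsm1 ranked 15 for Irs4. Values within single libraries were lower in every case, for example -0.38 to 0.61 for Rpl23 with Insr and 0.48 to 0.77 for Fkbp5 with Irs2.

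Insulin treatment was followed by no called change of the 4 genes in all annotated nuclei. Insr was at 138 and 117 CPM in the Saline libraries and at 124 and 121 CPM in the Insulin libraries, a log2 difference of -0.07. Irs1 was at 44.7 and 39.4 against 44.7 and 35.8 CPM (-0.07), Irs2 at 32.8 and 30.003 against 34.0 and 38.0 CPM (0.19), and Irs4 at 11.3 and 6.61 against 8.27 and 8.60 CPM (-0.10). Only for Irs2 did both Insulin libraries lie above both Saline libraries. With 0 of 4 genes called, the share over all 21190 genes was 0%, with 88 genes at an unadjusted p under 0.05 and a median log2 difference of 0.01. The fit had no term for run, so differences between runs counted as scatter. A fit with the run as a block also called 0 of the 4, and 0% of all genes, with 1338 at an unadjusted p under 0.05. Where a change misses the threshold with 2 libraries a group, that does not show that it is absent, and the smallest p of an exact permutation of 2 against 2 is 0.333.

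By cell type, 0 of 25 tests of the 4 genes were called (edgeR) where 0% of all tests were, and by neuron population 0 of 119 where 0.000835% were. With the run block the members' counts were again 0 of 25 and 0 of 119, while 0.0724% and 0.134% of all tests were called. At an unadjusted p under 0.05, Irs2 passed in ependymal nuclei and in astrocytes among the types. Astrocytes had 38.8 and 36.7 CPM of Irs2 in the Saline and 58.4 and 51.4 CPM in the Insulin libraries, which do not overlap (edgeR 0.52, SE 0.17, unadjusted p = 0.020, adjusted p = 0.9999). Oligodendrocytes had 60.1 and 54.4 CPM against 74.6 and 74.6 CPM (edgeR 0.38, SE 0.22, unadjusted p = 0.12, adjusted p = 0.9998). The differences of Irs2 were above 0 in 6 of 7 tested types, and those of Irs1 below 0 in 6 of 7.

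**Figure D4:**
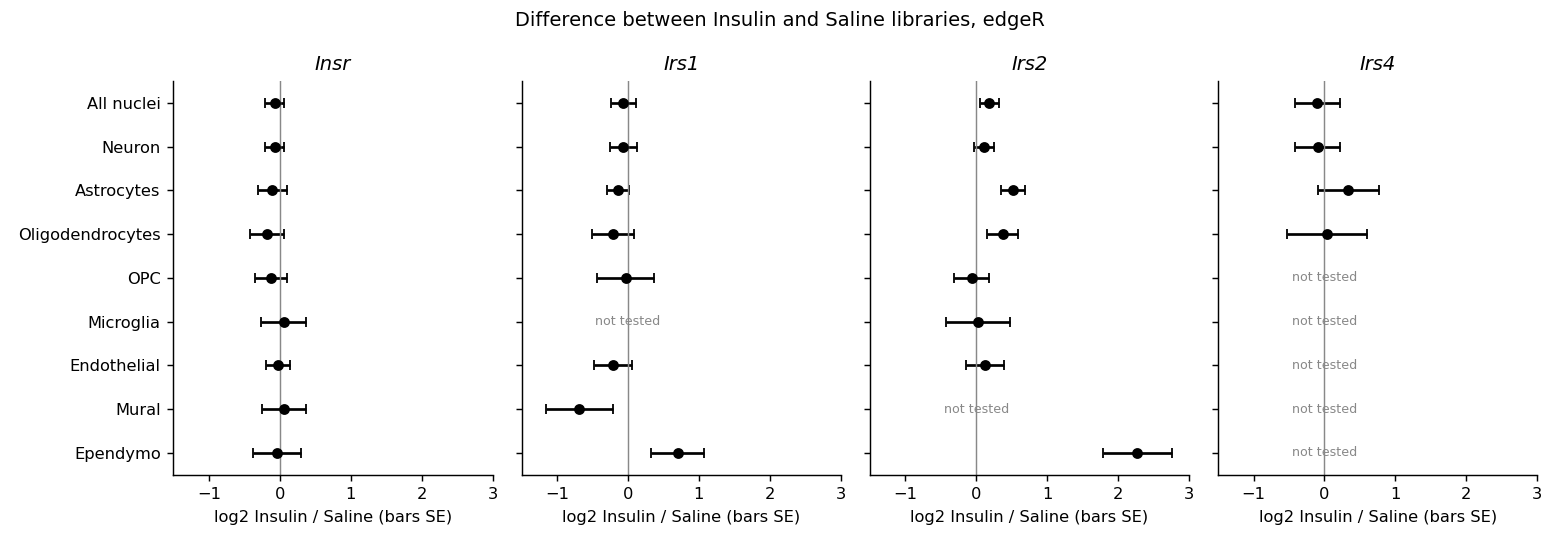
Log2 difference of Insulin against Saline for each of the 4 genes in each cell type (edgeR, no run block), with bars of 1 SE. Irs2 in Ependymo nuclei stands apart at 2.27, and the other values lie between -0.68 and 0.70.

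The largest value after insulin was that of Irs2 in ependymal nuclei, at 19.5 and 28.2 CPM in the Saline and at 81.0 and 142 CPM in the Insulin libraries. The Insulin libraries lay above the Saline ones in both runs, by 4.16-fold in run A (95% interval 1.06 to 19.4, counting error only) and by 5.04-fold in run B (2.63 to 10.8). The counts were small: 4 and 10 UMIs in the Saline libraries, 7 and 103 in the Insulin libraries, from 274 nuclei, of which the Insulin library of run A held only 16. The log2 difference by edgeR was 2.27 (SE 0.48, unadjusted p = 0.000395), with an adjusted p of 0.9998 over the genes of that type and of 0.11 with the run block. It was called without the filter on low counts (adjusted p = 0.0064) and on leaving out the Saline library of run A (0.0064), the Saline library of run B (0.017) or the Insulin library of run A (0.0022). It was not called without the Insulin library of run B, which held 103 of the Irs2 UMIs (1.64, adjusted p = 0.97), by DESeq2 (2.25, adjusted p = 0.9997), with RLE scaling (2.28) or with no scaling beyond total UMIs (2.29). Thinned to 1000 UMIs, 5.56%, 2.04%, 6.67% and 11.6% of the ependymal nuclei had a UMI of Irs2.

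The change in ependymal nuclei was also tested against the mean change of the other types. Here 1 of 32 tests of the 4 genes was called, Irs2 in ependymal nuclei (2.25, SE 0.38, adjusted p = 0.032, edgeR), where 0.00204% of all tests were, or 2 genes. The call was lost without the Saline library of run A (1.97, adjusted p = 0.21), the Saline library of run B (2.72, adjusted p = 0.95) or the Insulin library of run B (1.37, adjusted p = 0.91), and with nuclei thinned to 1000 UMIs (1.64). Marker sums of these nuclei differed between libraries: the 6 ependymal markers summed to 3044, 2226, 3044 and 3449 CPM, the 6 neuronal markers to 161, 736, 185 and 211 CPM, and astrocyte markers to 1432, 1684, 1701 and 1591 CPM. Among these ependymal and tanycyte markers, Rax had 0 to 4 UMIs per library. Col23a1 of the same list had 69, 87, 31 and 200 UMIs (336, 245, 359 and 276 CPM). The part of nuclear composition in the Irs2 values was not tested, and fewer cells of a kind and less RNA per cell cannot be told apart in such sums. Irs1 in the same nuclei was at 77.9 and 87.5 against 174 and 121 CPM (edgeR 0.70, SE 0.37, adjusted p = 0.9998), with a change against the other types of 1.00 (SE 0.32, adjusted p = 0.53). Insr there was at 151 and 200 against 197 and 166 CPM (-0.04).

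**Figure D5:**
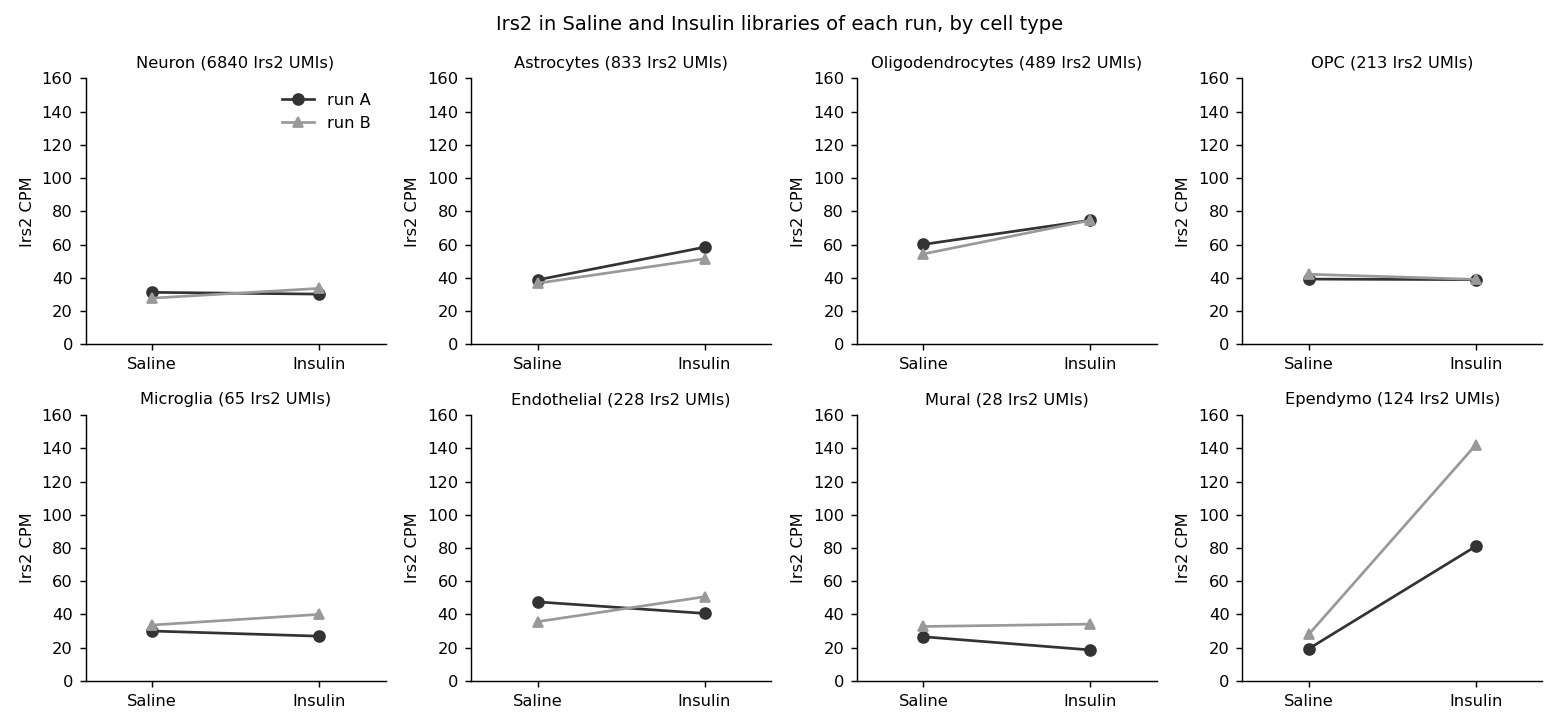
Level of Irs2 in each cell type, in CPM, with a line from the Saline to the Insulin library of each run. In Ependymo nuclei both lines rise, from 19.5 to 81.0 CPM in run A and from 28.2 to 142 CPM in run B.

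Among neuron populations, 0 of 105 tests of a change against the mean change of the other populations were called for Insr, Irs1 and Irs2, where 0.0429% of all tests were. Irs4 had no such test, because the Insulin libraries held none of its UMIs in Pmch neurons. In Agrp neurons Irs1 was at 29.4 and 38.2 CPM in the Saline and at 20.3 and 11.8 CPM in the Insulin libraries, with no overlap (edgeR -1.07, SE 0.36, adjusted p = 0.9995). The ratio of Insulin to Saline was 0.691 in run A (95% interval 0.417 to 1.12, counting error only) and 0.310 in run B (0.165 to 0.562), and the adjusted p with the run block was 0.14. Insr in Agrp neurons was at 143 and 110.2 against 133 and 112 CPM, Irs2 at 57.1 and 44.7 against 65.5 and 65.8 CPM, and Irs4 at 95.5 and 70.9 against 75.2 and 53.9 CPM. In M30.Gal neurons Irs2 was at 22.02 and 25.5 against 60.8 and 44.0 CPM, from 43 UMIs (edgeR 1.14, adjusted p = 0.9967).

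Run B was also set against run A within treatment, since run and sex coincide and Irs4 lies on the X chromosome. In all nuclei 0 of the 4 genes were called (edgeR), where 3.97% of all genes were, and the Irs4 difference was -0.41 (SE 0.24, adjusted p = 0.33). By type 1 of 25 tests was called, where 4.91% of all tests were, and by population 2 of 119, where 3.86% were. The type was OPC, with Irs1 at 68.6 and 76.1 CPM in run A and at 47.6 and 36.2 CPM in run B (-0.89, SE 0.23, adjusted p = 0.0022). Neuronal markers in OPC moved the other way, at 828 and 636 CPM in run A and 1468 and 1202 CPM in run B. The OPC markers were lower in run B like Irs1, at 6108 and 6349 CPM in run A and 4704 and 4959 CPM in run B. The part of these markers in the difference was not tested. The populations were M20.GABA for Insr (-0.52, adjusted p = 0.016) and M15.Nts for Irs1 (-0.89, adjusted p = 0.044), both lower in run B.

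Other genes of the pathway were read from a list of 70 symbols: PI3-kinase and AKT arm, other substrates and adaptors, restraints, ligands and receptor relatives. None was called for insulin in 66 tests in all nuclei, 383 by type and 1598 by population, with or without the run block, and the median log2 difference of the list in all nuclei was 0.01. By edgeR the list genes of smallest p in all nuclei were Inpp5d, a lipid phosphatase (0.78), Pik3r3 (0.44) and Tbc1d4 (-0.22), and in neurons Grb7 (1.99), Pik3r3 (0.54) and Ptpn1 (0.16), with adjusted p of 0.9997 to 0.9998. The change in a population against the others was called for Cbl in M27.Trh (0.84, adjusted p = 0.036), 1 of 1610 tests, beside 0.0429% over all genes. M27.Trh held 123 of the 147 calls of all genes in that comparison.

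Against other types, 130 of 440 tests of the list were called higher and 124 lower, beside 25.2% and 22.4% of the tests of all genes. By group these were 42 and 39 of 176 for the PI3-kinase and AKT arm, 50 and 41 of 144 for adaptors, 29 and 35 of 96 for restraints, 3 and 3 of 8 for ligands and 6 and 6 of 16 for receptor relatives. The largest were Inpp5d (8.20) and Pik3cd (4.87) in microglia, and Inppl1 (-4.58) and Gab1 (-4.57) in neurons. Igf1 was higher in neurons (2.87), in microglia (2.22) and in OPC (1.27). The receptor of its product, Igf1r, was higher in Mural nuclei (2.36), as Insr was.

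Across populations 263 of 1750 list tests were called higher and 208 lower, beside 12.6% and 9.06% over all genes. By group these were 81 and 61 of 735 in the PI3-kinase and AKT arm, 80 and 66 of 595 among adaptors, 76 and 57 of 315 among restraints, 9 and 7 of 35 for the ligand Igf1 and 17 and 17 of 70 for receptor relatives. Foxo1, a transcription factor that AKT keeps out of the nucleus, was highest against the others in M25.Ghrh (3.57) and Agrp neurons (2.76). The adaptor Gab1 was higher in M31.Th (3.36) and M25.Ghrh (2.83), where Irs1 was also high. Igf1r was higher in M25.Ghrh (1.65) and M31.Th (1.53) and lower in Agrp neurons (-1.62), and Irs2 was called higher in each of them. Grb14, which binds the receptor and dampens it, was lower in Pmch neurons (-2.06) and higher in M8.Nr5a1 (1.64), and Igf1 was higher in Pmch neurons (6.69).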

How the data were processed

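The authors deposited raw UMI counts per gene and nucleus; the submitters' processing notes name Cell Ranger and GRCm38, and the version and annotation are not given in the sources used here. Cell types, populations and 423 doublets are those of the authors' deposited table; doublets and 1116 unassigned nuclei count only among all nuclei. Counts were summed per library within each type and population and tested with edgeR 4.0.16 in R 4.3.3 (TMM scaling, filterByExpr with minimum count 10 and total 15, quasi-likelihood test, Benjamini-Hochberg adjustment within each comparison, SE as the log2 difference over the root of F). Units needed at least 10 nuclei in every library. For comparisons against the mean of other groups, genes without a UMI in a group (851 of 14597 for types, 1361 of 13858 for populations) were left out of the test, since that mean is then not finite; this step was added after the data were seen. Alternatives were DESeq2 1.42.0, other scalings, no filter, no library block, at least 50 nuclei in every library, thinning and leaving out each library. The main fits of insulin against saline had no block, so differences between runs counted as scatter. Library names carry no replicate number of the labels, so sequencing run was the replicate block of an alternative fit. The deviations of same-run libraries from the treatment means correlated at 0.701 in all nuclei and 0.680 in neurons, but -0.062 in microglia. Scripts were tested on simulated counts. Populations named are the 3 highest and 3 lowest tested means per gene, Agrp and Pomc neurons, and, chosen after their values were seen, others that were called; pathway genes are those with the largest called differences per group, or the 3 smallest p-values; the 3 most similar genes have the highest r. The values of 1 neuron population are not reported here, though it counts in the totals. The members, lists and rules were chosen with earlier results of these data known.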

Additional observations from a re-analysis of the deposited data

Results flagged for a closer look

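The change of Irs2 after insulin differed between ependymal nuclei and the other cell types by 2.25 on the log2 scale in a test of the difference itself (edgeR, adjusted p = 0.032). It rested on 124 UMIs of Irs2 in 274 nuclei, and the call was lost on leaving out any of 3 of the 4 libraries.

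The 4633 barcodes without annotation, which entered no comparison, also held the 4 genes, far above the 0.0808 CPM that a count of 0 allows. Their levels were 124 CPM for Insr, 40.0 CPM for Irs1, 35.02 CPM for Irs2 and 9.02 CPM for Irs4, at a median depth of 7270 UMIs.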

How the results depend on the processing

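For 71 single results and 687 alternatives, 624 kept direction and side of the threshold, 49 lost the call, 4 gained one and 10 turned. Keeping genes without a UMI in a group in the test, an alternative added after the data were seen like the thinned, RLE and unfiltered ones for changes between types, kept all 13 type calls, 44 population calls and 1 change call of the 4 genes. Without the library block, the 4 genes had 34 population calls. The cause of these changes was not tested.

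Sequencing run served as the replicate block in an alternative to the main insulin fits, which had none. With it, gene calls for insulin rose from 0 to 64 over types and from 3 to 482 over populations, with no call of the 4 genes. DESeq2 made 5 gene calls over populations. With no filter, gene calls were 143 over types, 192 over populations and 224 for changes of types, and Irs2 in ependymal nuclei made 1 call of the 4 genes over types. Thinned to 1000 UMIs, gene calls between types fell to 27070 from 52385, and changes of types gave 0 gene calls and 0 calls of the 4 genes. Thinned to 2000 UMIs, 20.3%, 7.26%, 6.02% and 1.89% of neurons had a UMI of Insr, Irs1, Irs2 and Irs4.

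Leaving out 1 library at a time, gene calls for insulin ranged from 63 to 1367 over types and from 78 to 5419 over populations, where each lone library was assumed to vary like the others, and calls of the 4 genes over types from 0 to 1 (Irs2 in ependymal nuclei). Population calls of the 4 genes ranged from 25 to 40, and changes of types from 1 to 261 gene calls and 0 to 1 calls of the 4 genes. In all nuclei the insulin difference of Irs1 ranged from -0.26 to 0.11, of Irs4 from -0.45 to 0.38 and of Insr from -0.21 to 0.094. In neurons the ranges were -0.28 to 0.12, -0.47 to 0.42 and -0.21 to 0.10, and for Irs2 -0.0062 to 0.23. Irs2 in ependymal nuclei against the other types ranged from -0.31 to 1.36. Depth limits Irs4 outside neurons (4 to 80 UMIs per type), Irs1 in microglia (35 UMIs) and Irs2 in ependymal nuclei (4 to 10 UMIs in 3 of the 4 libraries).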
